A study of Mus musculus with 48 samples.

Results

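High-fat diet (HFD) was given for 12 weeks to mice that lack p110α in hepatocytes, and the liver transcriptome of the fed animals was compared with that of fed mice of the same genotype on control diet (CTRL). The samples were chosen by their titles alone: the 6 fed knockout mice on HFD were set against the 6 fed knockout mice on CTRL, which are 12 of the 48 mice in the study. All 12 were males of genotype albumin-Cre+/−, p110α flox/flox, written p110αhep-/-. Both diet groups therefore carry the same deletion, and the diet is what differs. The HFD supplied 60% of calories as fat and was given from 12 weeks of age, and the mice ate freely until they were killed at ZT16, that is 16 h after lights on. For comparison, the same diet contrast is given in fed littermates without Cre (p110αhep+/+) and in p110αhep-/- mice fasted for 24 h, again with 6 mice per group. Cre was driven by the albumin promoter, so the other cells of the liver keep p110α. Each mouse had 1 one-colour array of whole-liver RNA, and in such RNA fewer cells of a type and less RNA per cell cannot be told apart. P-values and standard errors rest on 1 spread between mice within groups, pooled over all 48 mice. A group that varies more than the others is therefore not given its own spread.

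p110α is the catalytic subunit of PI3Kα, the lipid kinase that makes PIP3 when insulin binds its receptor. In hepatocytes this signal passes through AKT. It raises the synthesis of fatty acids and sterols, largely through the SREBP transcription factors, it stores glucose as glycogen, and it holds back FOXO1. Fatty acids that reach the liver from the diet or from adipose tissue activate PPARα, the nuclear receptor that drives their oxidation and the making of ketone bodies. The liver also makes hepcidin, the hormone that lowers iron in the blood, and many of its cytochromes P450 and transport proteins depend on sex and on growth hormone.

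On the arrays, levels are normalized log2 signals, so a difference of 1 is a 2-fold change. A gene is read at its brightest probe, and levels of different genes are not compared. The log2 fold change is the level on HFD minus that on CTRL, given ± its standard error from a limma fit with array weights. These weights can move it from the difference of the plain means, most where a mouse of low weight stands apart. Genes that differed by more than 1.5-fold with a Benjamini-Hochberg adjusted p no higher than 0.05 were called. The 6 hepatocyte markers examined, albumin among them, had the same summed level in both groups (20.34 to 20.44 on HFD and 20.37 to 20.44 on CTRL). *Pik3ca*, which encodes p110α, stood at 13.02 to 13.33 with a median of 13.26 on CTRL and 13.08 to 13.56 with a median of 13.33 on HFD (log2 fold change 0.05 ± 0.08, adjusted p = 0.79). Its probe lies on chromosome 3, 32364747 to 32364806 of mm9, and does not check the deletion, so the genotypes are taken as labelled.

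Replicate 3 of the HFD group stood apart from the other 5 HFD mice, and results of the diet comparison are therefore given with and without it. It is used under the diet its label gives, and whether that label is right was not tested. In parentheses, the log2 fold change without this mouse follows the adjusted p. Its array correlated with those of the other HFD mice at 0.989 to 0.990 over all genes, whereas those 5 correlated with each other at 0.993 to 0.996. Its correlation with the CTRL arrays was 0.989 to 0.992. The fit gave it a weight of 0.354, the lowest of the 12, against 0.822 to 1.35 for the other HFD arrays. To place it gene by gene, its level was expressed as a percentage of the way from the CTRL mean to the mean of the other 5 HFD mice, over the 539 genes called without it. The median was 33.7%, and 60.3% of these genes lay nearer to CTRL. When each other HFD mouse was left out and placed in the same way, its median lay between 74.2% and 122%. Of the 539 genes, replicate 3 lay within the range of the other HFD mice for 158, within the range of the CTRL mice only for 203 and in neither for 178. Genes that were higher on HFD were less shifted in this mouse (median 23.1%) than genes that were lower (50.5%).

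The departure of replicate 3 was not the same in every pathway. For the 9 lipogenesis genes called without it, its median position was 113%, beyond the mean of the other HFD mice, with a range from 41.6% (*Scd1*) to 220%, and for 4 of the 9 it lay within the range of the other HFD mice. For 15 fatty acid oxidation genes it was 17.6%, for 8 PPARα targets 22.7%, for 6 iron genes 11.2% and for 10 cholesterol genes 31.8%. In the 6 xenobiotic cytochromes P450 and the 3 interferon-stimulated genes called, the medians were -53.7% and -46.8%, beyond the CTRL mean on the far side from HFD. These genes were chosen on the other mice, so the positions are descriptive and carry no test.

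**Figure D1:**
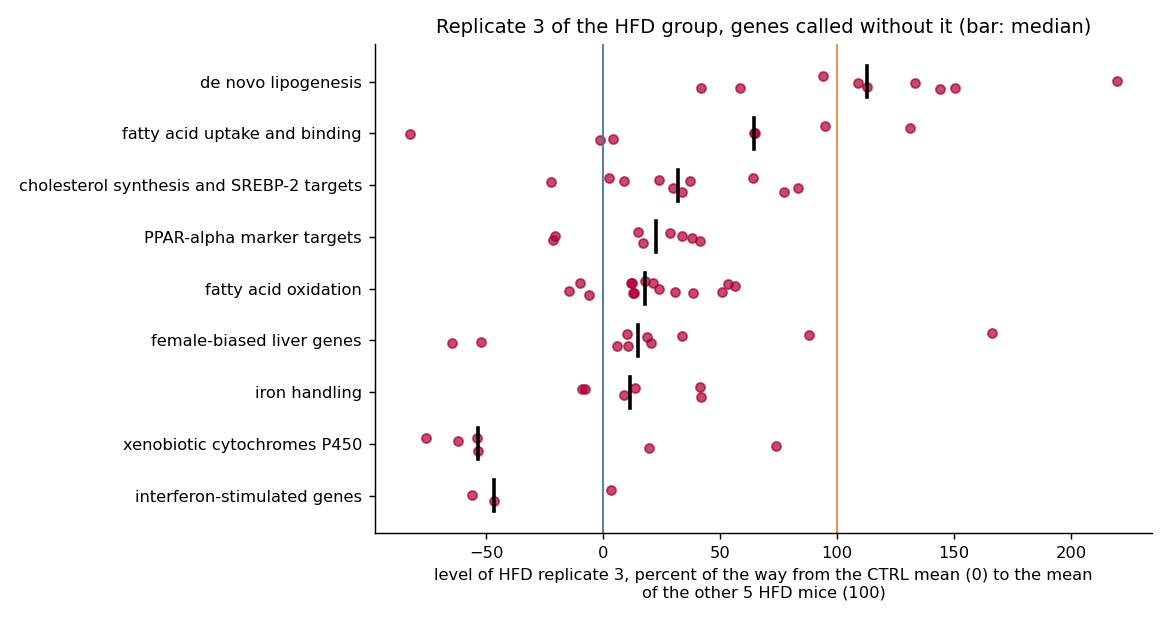
Position of HFD replicate 3 for the genes of 9 lists that were called without it. Each point is 1 gene, the x axis gives percent of the way from the CTRL mean (blue line, 0) to the mean of the other 5 HFD mice (orange line, 100), and the bar is the median. The lipogenesis genes lie on both sides of the orange line and most oxidation, iron and female-biased genes near the blue line.

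Among 20486 genes tested, 264 were higher (1.29%) and 211 lower (1.03%) on HFD with all 12 mice. Without replicate 3, 303 were higher (1.48%) and 236 lower (1.15%). Called both ways were 466 genes, 261 higher and 205 lower, and none changed sign. The 2 fits share 11 of the 12 mice, so this is no independent support. The HFD and CTRL mice did not overlap for 351 genes in the higher direction (1.71% of all genes) and 449 in the lower (2.19%), and without replicate 3 for 722 (3.52%) and 805 (3.93%). Of the 475 genes called with all mice, 205 did not overlap, and of the 539 called without replicate 3, 386 did not. The typical change was modest. The median size of a called change was 0.81 on the log2 scale in both fits, while the median over all genes was -0.00060. Within washing batch 1, which holds HFD mice 1, 4 and 5, 355 genes were higher and 303 lower. Within batch 2, which holds HFD mice 2, 3 and 6, 62 were higher and 59 lower. In batch 2 alone, 5 lipogenesis genes were called lower with a median over the list of -1.05, and 3 fatty acid oxidation genes higher with a median of 0.45.

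**Figure D2:**
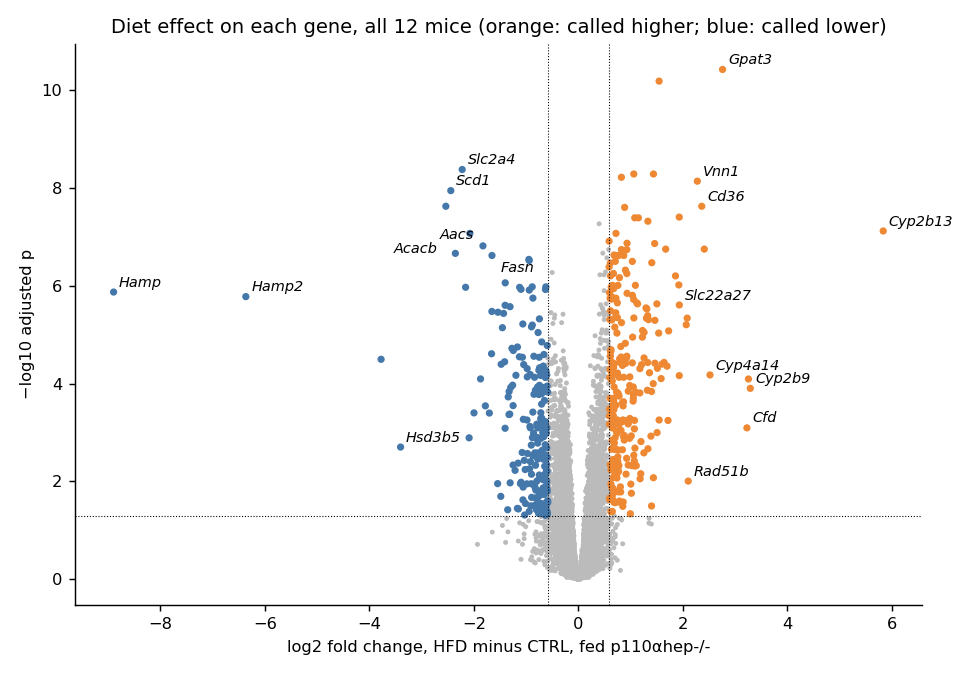
Log2 fold change (x axis) and −log10 adjusted p (y axis) of the 20486 genes, HFD minus CTRL in fed p110αhep-/- mice, with all 12 mice. Dotted lines mark an adjusted p of 0.05 and a fold change of 1.5. *Hamp* and *Hamp2* lie far to the left and *Cyp2b13* far to the right of the 264 higher (orange) and 211 lower (blue) genes.

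The deepest fall was in hepcidin. *Hamp* encodes this hormone, which binds the iron exporter ferroportin and has it degraded, and mice carry a second copy, *Hamp2*. The sequences just before both start sites are shown because the copies are so alike, and the promoter of *Hamp* is where BMP and STAT3 signals are known to act. The 200 bases before the start site were taken from RefSeq on GRCm38.p6, at chr7:30944030-30944229 for *Hamp* and chr7:30924182-30924381 for *Hamp2*, both on the minus strand and printed 5′ to 3′. Capitals mark the letters GGCGCC, the core of a BMP response element, and TTCNNNGAA, that of a STAT element.
Hamp: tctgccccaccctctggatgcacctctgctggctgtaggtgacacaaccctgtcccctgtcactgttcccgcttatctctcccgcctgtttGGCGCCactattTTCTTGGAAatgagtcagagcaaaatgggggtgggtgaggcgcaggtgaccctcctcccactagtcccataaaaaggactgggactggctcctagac
Hamp2: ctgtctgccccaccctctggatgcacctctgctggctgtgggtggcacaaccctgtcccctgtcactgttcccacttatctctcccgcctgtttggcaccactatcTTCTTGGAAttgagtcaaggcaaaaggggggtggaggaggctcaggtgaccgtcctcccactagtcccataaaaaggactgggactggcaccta
Aligned, the windows were identical at 183 of 203 columns (90.15%). TTCTTGGAA was found in both, starting 97 bases before the start site of *Hamp* and 94 before that of *Hamp2*. GGCGCC was found in the *Hamp* window only, at 109 bases. Both strands were searched, and over 32851 RefSeq mouse promoters of 300 bases GGCGCC occurs in 11.9% and TTCNNNGAA in 8.30%. A match describes letters and not binding.

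The level of *Hamp* was 15.10 to 16.43 with a median of 15.64 in the 6 CTRL mice and 4.88 to 14.86 with a median of 6.32 in the 6 HFD mice. In 5 HFD mice it lay at 4.88 to 7.95, while replicate 3 was at 14.86, just under the lowest CTRL mouse. The log2 fold change was -8.90 ± 1.22 with all mice (adjusted p = 1.35e-06) and -9.43 ± 1.16 without replicate 3 (adjusted p = 1.4e-07). Only 4 of the 6 HFD arrays were well above background for *Hamp*, so the size of its fall depends on signals near background. *Hamp2* stood at 13.63 to 14.99 with a median of 14.06 on CTRL and 6.97 to 13.29 with a median of 7.73 on HFD, with replicate 3 at 13.29 and the other HFD mice at 6.97 to 8.13. Its log2 fold change was -6.37 ± 0.88 with all mice (adjusted p = 1.67e-06) and -6.73 ± 0.85 without replicate 3 (adjusted p = 2.18e-07), and it was well above background on all 12 arrays. Both genes were thus below all CTRL mice in every HFD mouse, but only slightly so in replicate 3. Transcripts of the 2 copies are similar, and cross-hybridization between their probes was not tested.

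Of 22 genes of iron handling, 5 fell and 1 rose, with or without replicate 3, and the median over the list was -0.01. The genes that fell besides the hepcidins belong to the BMP signal that controls hepcidin. *Bmp2*, a ligand made largely by sinusoidal endothelial cells, was 9.85 to 10.64 with a median of 10.39 on CTRL and 9.40 to 9.99 with a median of 9.61 on HFD (log2 fold change -0.78 ± 0.14, adjusted p = 0.000118, without replicate 3 -0.82). *Id1*, a target of the SMAD proteins, went from 8.01 to 9.54 with a median of 9.02 on CTRL to 7.42 to 9.01 with a median of 7.57 on HFD, a log2 fold change of -1.10 ± 0.30 (adjusted p = 0.0104, without replicate 3 -1.17). *Atoh8*, a transcription factor of the same response, changed by -0.78 ± 0.17 (adjusted p = 0.0014, without replicate 3 -0.82). In all 3 genes the groups overlapped only through replicate 3. The ligand *Bmp6* was below the fold threshold (-0.38 ± 0.12, adjusted p = 0.0256), and the SMAD targets *Smad6* (0.03, adjusted p = 0.896) and *Smad7* (-0.26, adjusted p = 0.305) did not pass. *Tfrc*, the receptor that takes up transferrin-bound iron, rose: it was 7.04 to 8.59 with a median of 8.21 on CTRL and 10.05 to 10.55 in 5 HFD mice, with replicate 3 at 7.72, and its log2 fold change was 2.08 ± 0.31 (adjusted p = 4.61e-06) and without replicate 3 2.24 ± 0.28 (adjusted p = 2.44e-07). The level of *Slc40a1*, which encodes ferroportin, did not pass the test (-0.24 ± 0.13, adjusted p = 0.276), nor did the hepcidin regulators *Tmprss6* (-0.01, adjusted p = 0.953) and *Tfr2* (0.02, adjusted p = 0.857). In fed p110αhep+/+ mice 5 of the 22 iron genes were also called lower on HFD and 1 higher. In fasted p110αhep-/- mice 4 were lower and 2 higher.

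**Figure D3:**
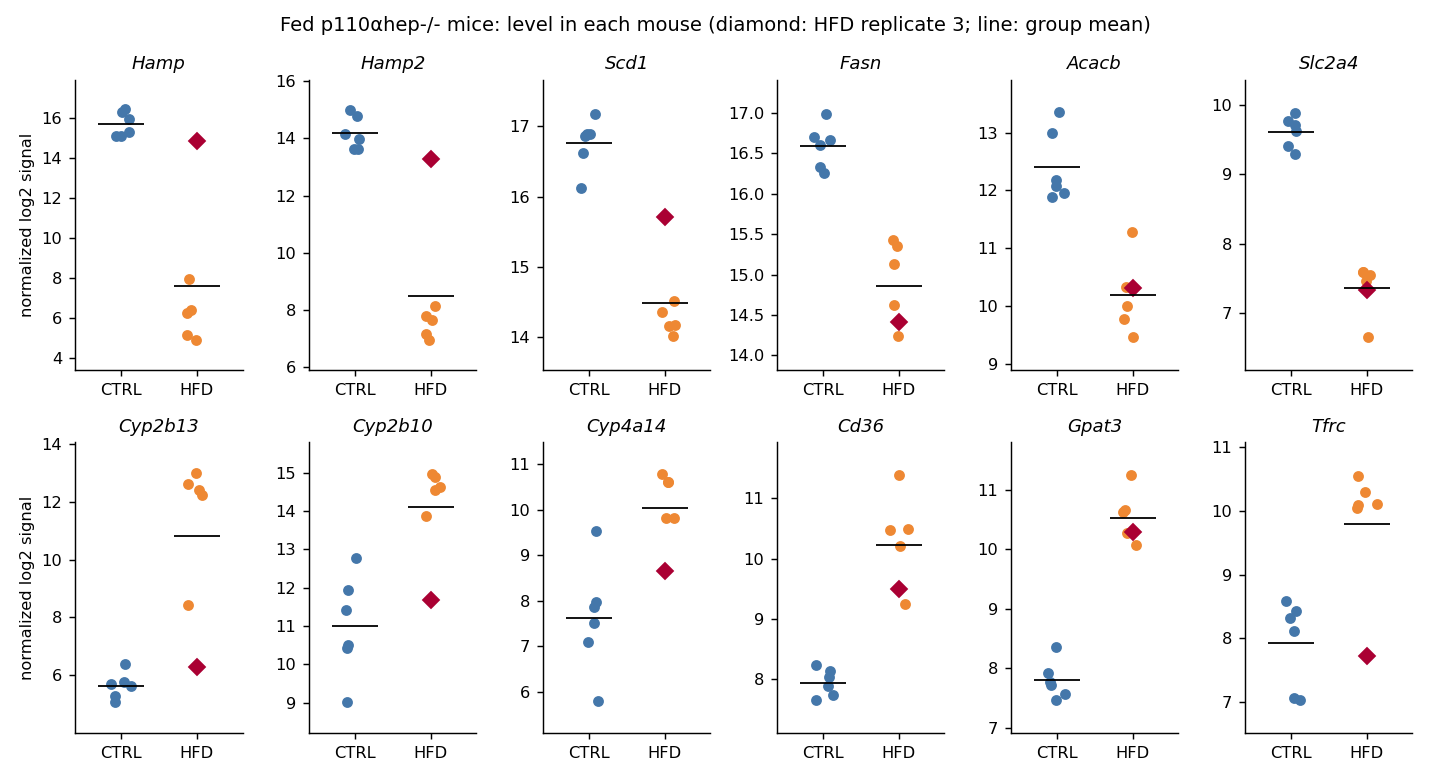
Normalized log2 signal of 12 genes in each of the 6 CTRL (blue) and 6 HFD (orange) fed p110αhep-/- mice, with the group mean as a line and HFD replicate 3 as a diamond. Replicate 3 sits with or near CTRL for *Hamp*, *Hamp2*, *Cyp2b13* and *Tfrc*, and among the other HFD mice for *Fasn*, *Acacb* and *Gpat3*. Each panel has its own y axis.

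Most genes of fatty acid synthesis were lower on HFD. Of 16 genes of de novo lipogenesis, 9 were called lower with and without replicate 3, 15 of 16 had a log2 fold change below 0, and the median was -0.86 (-0.84 without replicate 3). Fatty acid synthase, *Fasn*, was 16.25 to 16.98 with a median of 16.63 on CTRL and 14.25 to 15.42 with a median of 14.88 on HFD. The groups did not overlap, and *Fasn* fell by 1.65 ± 0.21 (adjusted p = 2.42e-07, without replicate 3 -1.60), or 3.15-fold. Replicate 3 was among the lowest, at 14.41. The desaturase *Scd1*, which makes oleate, was 16.12 to 17.18 with a median of 16.87 on CTRL and 14.01 to 15.72 with a median of 14.27 on HFD, again without overlap although replicate 3 was the highest HFD mouse. Its log2 fold change was -2.44 ± 0.26 (adjusted p = 1.14e-08) and -2.54 ± 0.25 without that mouse (adjusted p = 2.66e-09). The close copy *Scd3* changed by -2.54 ± 0.28 (adjusted p = 2.38e-08, without replicate 3 -2.62) at the probe used, while another probe of *Scd3* gave -0.14.

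Other enzymes of the pathway were lower too. *Acaca*, acetyl-CoA carboxylase 1, which makes the malonyl-CoA used for synthesis, was 13.09 to 13.66 with a median of 13.16 on CTRL and 11.96 to 12.47 with a median of 12.36 on HFD (-0.90 ± 0.14, adjusted p = 6.94e-06, without replicate 3 -0.87). *Acacb*, its mitochondrial counterpart, whose malonyl-CoA restrains the entry of fatty acids into mitochondria, was 11.89 to 13.35 with a median of 12.13 and 9.45 to 11.28 with a median of 10.15 (-2.36 ± 0.29, adjusted p = 2.19e-07, without replicate 3 -2.37). This value rests on 1 probe, since the other 2 probes of *Acacb* gave -0.19 and -0.04 and were not called. For *Acaca* 4 of 6 probes were called lower. The elongase *Elovl6* changed by -1.25 ± 0.20 (adjusted p = 2.11e-05, without replicate 3 -1.19) and malic enzyme *Me1*, a source of NADPH, by -1.48 ± 0.25 (adjusted p = 4.04e-05, without replicate 3 -1.37), and neither overlapped. *Aacs*, which activates acetoacetate for lipid synthesis, was 12.34 to 13.44 with a median of 13.02 on CTRL and 10.74 to 11.55 with a median of 11.03 on HFD, a change of -1.83 ± 0.22 (adjusted p = 1.54e-07, without replicate 3 -1.80). *Pnpla3*, a lipid droplet protein under SREBP-1c, changed by -1.71 ± 0.34 (adjusted p = 0.000401, without replicate 3 -1.75, with another probe at -0.69), and *Mid1ip1*, which activates acetyl-CoA carboxylase, by -0.82 ± 0.25 (adjusted p = 0.0217, without replicate 3 -0.81).

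Neither of the pathway's main transcription factors was called. *Srebf1*, which encodes SREBP-1, was 15.08 to 16.23 with a median of 15.48 on CTRL and 14.74 to 15.51 with a median of 15.12 on HFD, and its log2 fold change of -0.39 ± 0.22 did not pass (adjusted p = 0.287). *Mlxipl*, which encodes ChREBP, did not overlap between the groups and had an adjusted p of 0.00103, but its change of -0.48 ± 0.10 is under 1.5-fold. ATP citrate lyase *Acly* was likewise under it (-0.49 ± 0.17, adjusted p = 0.0484), and the accessory factor *Thrsp* did not pass (-0.73 ± 0.34, adjusted p = 0.169). The promoter of *Fasn* is shown as that of the pathway's central enzyme. Its 200 bases before the start site lie at chr11:120824548-120824747 of GRCm38.p6 (RefSeq, minus strand), and capitals mark CCAAT, the letters bound by NF-Y beside SREBP, read on either strand.
Fasn: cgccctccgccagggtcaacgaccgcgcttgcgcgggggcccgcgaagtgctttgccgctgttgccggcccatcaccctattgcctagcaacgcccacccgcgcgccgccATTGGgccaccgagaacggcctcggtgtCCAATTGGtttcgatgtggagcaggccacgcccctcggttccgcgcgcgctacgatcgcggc
CCAAT begins 62 bases before the start site on the printed strand, and on the other strand it covers bases that start 90 and 59 bases before it, so that the last match overlaps the first. CCAAT was in the 300-base promoters of 4 of the 8 called lipogenesis genes that have one in the table, where 37.4% of all 32851 promoters hold it, so the letters are common. TCACNCCAC, the letters of a sterol response element, were in none of the 8 windows and are in 1.24% of all promoters.

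Some genes of sterol synthesis were lower as well. Of 24 measured genes of cholesterol synthesis and SREBP-2 targets, 9 were lower and 1 higher, 21 had a log2 fold change below 0, and the median was -0.47 in both fits. Within washing batch 2, 2 of them were called lower with a median of -0.33, and within batch 1, 11 with a median of -0.61. *Fdps*, farnesyl diphosphate synthase, was 12.34 to 13.07 with a median of 12.72 on CTRL and 10.65 to 12.13 with a median of 11.54 on HFD (-1.33 ± 0.24, adjusted p = 0.000145, without replicate 3 -1.38), with no overlap. *Sqle*, squalene epoxidase, varied widely (6.33 to 9.11 with a median of 7.62 and 5.74 to 7.99 with a median of 6.18), and its change of -1.35 ± 0.44 passed with a higher adjusted p of 0.0379 and was -1.48 without replicate 3. *Cyp51* changed by -1.20 ± 0.21 (adjusted p = 6.78e-05, without replicate 3 -1.26), *Tm7sf2* by -0.94 ± 0.12 (adjusted p = 3.06e-07, without replicate 3 -0.96) and *Pmvk* by -0.60 ± 0.14 (adjusted p = 0.00322, without replicate 3 -0.62). All 3 encode enzymes of the same chain, and a second probe of *Cyp51* gave -0.60.

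Regulators and carriers of sterols were among the genes called. *Insig1*, which retains SREBP in the endoplasmic reticulum, changed by -0.98 ± 0.17 (adjusted p = 4.95e-05, without replicate 3 -1.03) and the sterol carrier *Stard4* by -0.60 ± 0.17 (adjusted p = 0.016, without replicate 3 -0.61), with another probe of *Stard4* at -0.33. The 1 gene called higher was *Hmgcs1*, whose log2 fold change at its brightest probe was 0.66 ± 0.18 (adjusted p = 0.0137, without replicate 3 0.70) but 0.15 at another probe. It was not called without CTRL replicate 1, within batch 2, with median scaling or where each gene was read at its median probe. *Srebf2* itself (-0.03 ± 0.09, adjusted p = 0.905) was not called.

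Several genes for taking up and handling ready-made fatty acids rose. Of 16 genes of fatty acid uptake and binding, 6 were higher and 1 lower in both fits, 9 were not called, 11 had a log2 fold change above 0, and the median was 0.41. The fatty acid translocase *Cd36* was 7.65 to 8.23 with a median of 7.96 on CTRL and 9.25 to 11.38 with a median of 10.35 on HFD. It rose by 2.36 ± 0.26 (adjusted p = 2.38e-08, without replicate 3 2.43), or 5.13-fold, and the groups did not overlap. *Fabp4*, a fatty acid binding protein best known from adipocytes and macrophages, was 9.90 to 10.60 with a median of 10.40 and 11.71 to 12.77 with a median of 12.42 (2.06 ± 0.31, adjusted p = 6.28e-06, without replicate 3 2.11). The lipoprotein lipase gene *Lpl* was 8.88 to 9.97 with a median of 9.63 and 10.49 to 11.28 with a median of 11.04 (1.34 ± 0.20, adjusted p = 4.95e-06, without replicate 3 1.32), and here replicate 3 was the highest of the HFD mice at 11.28. Intestinal-type *Fabp2* (0.90 ± 0.18, adjusted p = 0.000572, without replicate 3 0.91), the transporter *Slc27a1* (0.66 ± 0.13, adjusted p = 0.000279, without replicate 3 0.71) and the lipoprotein receptor *Vldlr* (1.00 ± 0.27, adjusted p = 0.0114, without replicate 3 1.09) also rose, while the acyl-CoA synthetase *Acsl4* fell (-0.61 ± 0.14, adjusted p = 0.00206, without replicate 3 -0.69). A second probe of *Vldlr* (0.47) and 1 of the other 5 probes of *Lpl* (0.16) were not called. The main liver protein *Fabp1* stayed near its CTRL level (0.06 ± 0.04, adjusted p = 0.371).

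The sum of adipocyte markers was also higher on HFD. The summed level of the 4 adipocyte markers measured was 7.92 to 8.48 on CTRL and 8.55 to 11.11 on HFD, without overlap, and replicate 3 had the lowest HFD value. The 1 marker called was *Cfd*, adipsin, which was 5.08 to 6.94 with a median of 5.64 on CTRL and 6.65 to 10.90 with a median of 8.89 on HFD (3.22 ± 0.67, adjusted p = 0.000804, without replicate 3 3.45). *Lep* (0.42 ± 0.14, adjusted p = 0.0354), *Plin1* (0.14 ± 0.11, adjusted p = 0.479) and *Retn* (-0.10 ± 0.13, adjusted p = 0.714) were not called, and adiponectin (*Adipoq*) was too dim to be kept. *Cd36*, *Fabp4* and *Lpl* are also expressed by adipocytes, and the part of such cells in their rise was not tested. Other markers gave overlapping sums, among them Kupffer cells (14.92 to 15.90 on HFD and 14.67 to 15.44 on CTRL) and sinusoidal endothelial cells (14.04 to 14.20 and 14.10 to 14.36). Of 8 markers of lipid-associated and recruited macrophages 1, *Cd9*, was called, and it fell (-0.63 ± 0.14, adjusted p = 0.00178, without replicate 3 -0.67).

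On the way from fatty acid to stored fat, a few genes changed strongly. *Gpat3* (*Agpat9* in the array annotation) encodes an acyltransferase of the first step of triglyceride synthesis, and it had the smallest adjusted p of all genes. It was 7.46 to 8.36 with a median of 7.74 on CTRL and 10.07 to 11.24 with a median of 10.46 on HFD, a rise of 2.76 ± 0.23 (adjusted p = 3.81e-11, without replicate 3 2.78) or 6.77-fold, and replicate 3 at 10.29 lay among the other HFD mice. A second probe of *Gpat3* gave 1.66. The related *Gpat2* rose by 0.82 ± 0.12 (adjusted p = 5.69e-06, without replicate 3 0.87) and the monoacylglycerol acyltransferase *Mogat1* by 1.58 ± 0.28 (adjusted p = 7.91e-05, without replicate 3 1.72). *Lpin1*, a phosphatidate phosphatase, fell from 12.11 to 13.06 with a median of 12.91 on CTRL to 9.84 to 12.53 with a median of 11.47 on HFD (-1.55 ± 0.42, adjusted p = 0.0111, without replicate 3 -1.64), and *Mogat2* fell by 0.67 ± 0.18 (adjusted p = 0.00922, without replicate 3 -0.67). The other probe of *Mogat1*, that of *Mogat2* and 1 of the other 3 probes of *Lpin1* were not called. *Dgat2*, which completes triglyceride, did not pass (-0.22 ± 0.08, adjusted p = 0.0554). Over the 17 genes of glycerolipid synthesis this made 3 higher and 2 lower, with a median of -0.05. The count of those called lower was 1 without HFD replicate 2 or CTRL replicate 1 and 0 within batch 1, and that of those called higher was 1 within batch 2.

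Of 17 lipid droplet proteins and lipases, 4 were higher with and without replicate 3. *Cidec*, which fuses droplets, was 7.58 to 9.06 with a median of 8.03 on CTRL and 8.73 to 11.09 with a median of 9.11 on HFD (1.40 ± 0.44, adjusted p = 0.0317, without replicate 3 1.48). *Plin2*, the common coat protein of hepatocyte droplets, was 13.56 to 14.57 with a median of 14.26 and 14.40 to 15.12 with a median of 14.80 (0.65 ± 0.19, adjusted p = 0.021, without replicate 3 0.68), and *Plin4* rose by 1.01 ± 0.29 (adjusted p = 0.0175, without replicate 3 1.02). *Fitm1*, which helps form droplets, was 7.51 to 8.58 with a median of 8.20 and 9.05 to 9.82 in 5 HFD mice, but 7.58 in replicate 3, at the bottom of the CTRL range. Its log2 fold change was 1.30 ± 0.19 (adjusted p = 4.61e-06) and 1.44 ± 0.16 without that mouse (adjusted p = 2.98e-08). The count of lipid droplet genes called fell to 2 when HFD replicate 2, 4 or 5 or CTRL replicate 2 was left out and within batch 1, and to 0 within batch 2. The lipase *Pnpla2* did not pass (-0.20 ± 0.13, adjusted p = 0.37).

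Part of the genes of fatty acid oxidation rose, by a modest amount. All 26 genes measured had a log2 fold change above 0, with a median of 0.59 (0.62 without replicate 3), and 13 were called higher (15 without it). The groups did not overlap for 12 of the 26 with all mice and for 23 without replicate 3. Over all genes, 1.71% did not overlap in the higher direction with all mice and 3.52% without replicate 3. The shares of all genes called higher were 1.29% and 1.48%. Among mitochondrial genes, *Acadm*, the medium-chain dehydrogenase, was 14.64 to 14.89 with a median of 14.73 on CTRL and 15.04 to 15.70 with a median of 15.52 on HFD (0.71 ± 0.09, adjusted p = 3.19e-07, without replicate 3 0.74). *Decr1*, needed for unsaturated fatty acids, was 14.95 to 15.28 with a median of 15.12 and 15.23 to 16.12 with a median of 15.87 (0.72 ± 0.08, adjusted p = 8.53e-08, without replicate 3 0.77), with replicate 3 lowest at 15.23. The carnitine carrier *Slc25a20* rose by 0.61 ± 0.08 (adjusted p = 1.82e-06, without replicate 3 0.66) although replicate 3, at 10.39, was below every CTRL mouse. Of the peroxisomal genes, *Acaa1b* changed by 0.79 ± 0.13 (adjusted p = 3.7e-05, without replicate 3 0.83), *Ehhadh* by 0.62 ± 0.19 (adjusted p = 0.0222, without replicate 3 0.63) and *Crot* by 0.83 ± 0.17 (adjusted p = 0.000603, without replicate 3 0.87). *Cpt1a*, the gate to mitochondrial oxidation, had an adjusted p of 0.000295 and a change of 0.51 ± 0.10, under 1.5-fold. Many members lay near the threshold of 1.5-fold, and median scaling in place of quantile normalization called 8.

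Some ketone body genes and PPARα targets rose too. Of 7 genes of ketone body metabolism, 3 were higher with all mice and 4 without replicate 3, with a median of 0.54. *Bdh1* (0.90 ± 0.12, adjusted p = 4.8e-07, without replicate 3 0.93) and *Acat1* (0.82 ± 0.10, adjusted p = 1.83e-07, without replicate 3 0.88) rose with and without replicate 3. *Oxct1*, the enzyme of ketone use that hepatocytes lack, did not (-0.27 ± 0.11, adjusted p = 0.106).

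Of 15 PPARα marker targets measured, 7 rose with all mice and 8 without replicate 3, with medians of 0.62 and 0.68. *Cyp4a14*, a fatty acid ω-hydroxylase, was 5.80 to 9.53 with a median of 7.69 on CTRL and 8.65 to 10.77 with a median of 10.21 on HFD (2.52 ± 0.44, adjusted p = 6.66e-05, without replicate 3 2.61). *Vnn1*, a pantetheinase, was 8.34 to 9.77 with a median of 9.16 and 10.09 to 11.92 with a median of 11.38, without overlap (2.28 ± 0.24, adjusted p = 7.32e-09, without replicate 3 2.37). *Cyp4a10* rose by 1.51 ± 0.26 (adjusted p = 4.87e-05, without replicate 3 1.63) and the acyl-CoA thioesterase *Acot2* by 1.60 ± 0.27 (adjusted p = 4.01e-05, without replicate 3 1.70). In *Cyp4a10* replicate 3 was at 12.67, inside the CTRL range of 12.50 to 13.41 with a median of 13.10, and the other HFD mice at 14.20 to 15.27. The members of the Cyp4a and Acot families are close in sequence and cross-hybridization was not tested. *Fgf21* (0.56 ± 0.25, adjusted p = 0.156), *Pdk4* (0.62 ± 0.41, adjusted p = 0.389) and *Angptl4* (0.38 ± 0.17, adjusted p = 0.146) did not pass, and *Ppara* itself stayed under 1.5-fold (0.33 ± 0.08, adjusted p = 0.00232). In fed p110αhep+/+ mice 10 of the 15 targets were called higher on HFD, with a median of 0.94.

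The strongest rise of any gene was in *Cyp2b13*, a cytochrome P450 of the Cyp2b family, which the receptor CAR induces and which female mice express more than males. It was 5.06 to 6.38 with a median of 5.67 on CTRL, where only 2 of 6 arrays were well above background, and 6.28 to 13.00 with a median of 12.31 on HFD. Replicate 6 was at 8.45, below the other 4 HFD mice but above CTRL, and replicate 3 at 6.28 lay within the CTRL range. The log2 fold change was 5.83 ± 0.68 (adjusted p = 7.62e-08) and 6.27 ± 0.62 without replicate 3 (adjusted p = 2.51e-09). *Cyp2b9* was 9.50 to 13.18 with a median of 11.45 and 12.23 to 15.48 with a median of 15.16 (3.29 ± 0.60, adjusted p = 0.000125, without replicate 3 3.47), and *Cyp2b10*, the usual marker of CAR, 9.02 to 12.77 with a median of 10.95 and 11.68 to 14.97 with a median of 14.59 (3.25 ± 0.57, adjusted p = 8.07e-05, without replicate 3 3.45). In both, replicate 3 lay within the CTRL range and the 5 other HFD mice above every CTRL mouse. The 3 genes share much sequence, and a second probe of *Cyp2b10* gave 1.26.

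Among genes that differ between the sexes in liver, most female-biased ones were higher in these males on HFD. Of 17 female-biased genes measured, 9 were higher and 1 lower, with a median of 0.61, and without replicate 3 the counts were the same. Besides the Cyp2b genes, *Hao2*, a peroxisomal hydroxyacid oxidase, rose by 1.54 ± 0.31 (adjusted p = 0.000555, without replicate 3 1.66), *Cyp3a16* by 1.07 ± 0.26 (adjusted p = 0.0038, without replicate 3 1.20), *Cyp3a41a* by 0.95 ± 0.23 (adjusted p = 0.00462, without replicate 3 1.06) and the peroxisomal transporter *Abcd2* by 0.80 ± 0.22 (adjusted p = 0.0129, without replicate 3 0.77). The count of female-biased genes called lower was 0 without CTRL replicate 3, 5 or 6. Of 16 male-biased genes, 5 were lower with all mice and 3 without replicate 3, and the median was -0.36. *Hsd3b5*, a steroid dehydrogenase of male liver, was 12.29 to 14.03 with a median of 12.83 on CTRL and spread widely on HFD, at 6.06 to 12.56 with a median of 9.88 (-3.40 ± 0.77, adjusted p = 0.00199, without replicate 3 -3.52). *Mup20*, a urinary pheromone protein (-0.60 ± 0.11, adjusted p = 0.000113, without replicate 3 -0.65), and *Gstp1* (-0.76 ± 0.26, adjusted p = 0.0451, without replicate 3 -0.82) also fell, but a second probe of *Mup20* gave 0.02. The count of male-biased genes called lower was 1 without HFD replicate 5 or CTRL replicate 2, 2 without HFD replicate 1, CTRL replicate 1 or CTRL replicate 4, and 3 without HFD replicate 2, HFD replicate 3 or CTRL replicate 3. In fed p110αhep+/+ mice 7 of the 17 female-biased genes were called higher and 7 of the 16 male-biased genes lower. In fasted p110αhep-/- mice 7 female-biased genes were higher and 1 lower, and 2 male-biased genes were lower.

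Among 24 xenobiotic cytochromes P450 measured, 4 were higher and 1 lower (5 and 1 without replicate 3). *Cyp3a11*, the main inducible drug-metabolizing form, was 12.96 to 14.30 with a median of 13.75 on CTRL and 13.06 to 15.34 with a median of 15.10 on HFD (1.11 ± 0.27, adjusted p = 0.00476, without replicate 3 1.25). The remaining rises were in *Cyp3a59* (0.67 ± 0.19, adjusted p = 0.0173, without replicate 3 0.75), *Cyp2c37* (0.69 ± 0.15, adjusted p = 0.00165, without replicate 3 0.77) and *Cyp2a22* (0.69 ± 0.14, adjusted p = 0.00063, without replicate 3 0.74). *Cyp2f2*, a periportal form, fell without overlap (-0.69 ± 0.13, adjusted p = 0.000145, without replicate 3 -0.70). Without HFD replicate 2 the 4 rises were 2. Of 15 pericentral zonation genes, 4 rose and the median was 0.34: *Lgr5*, a Wnt co-receptor (0.95 ± 0.17, adjusted p = 0.000143, without replicate 3 1.02), *Slc13a3* (0.90 ± 0.15, adjusted p = 3.04e-05, without replicate 3 0.96), *Oat* (0.77 ± 0.19, adjusted p = 0.00621, without replicate 3 0.84) and *Tbx3* (0.85 ± 0.27 at 1 of its 2 probes, adjusted p = 0.0323, without replicate 3 0.87). Glutamine synthetase, *Glul*, the classical marker of this zone, did not pass (0.31 ± 0.11, adjusted p = 0.057).

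Glucose genes changed in few but marked cases. *Slc2a4*, which encodes the insulin-responsive transporter GLUT4 known mainly from muscle and fat, was 9.30 to 9.88 with a median of 9.67 on CTRL and 6.66 to 7.60 with a median of 7.51 on HFD. The groups were far apart, and the log2 fold change was -2.22 ± 0.22 (adjusted p = 4.23e-09, without replicate 3 -2.21). Of 4 skeletal muscle markers, 2 were measured, *Tnnt3* (-0.73 ± 0.24, adjusted p = 0.0355), which was called lower, and *Myh4* (-0.12 ± 0.19, adjusted p = 0.774), which was not. Their summed log2 level was 6.68 to 7.35 on HFD and 6.85 to 8.74 on CTRL, and their part in *Slc2a4* was not tested. *Ppp1r3g*, which brings a phosphatase to glycogen after a meal, was 7.98 to 9.57 with a median of 8.55 and 6.00 to 7.92 with a median of 6.83 (-1.87 ± 0.33, adjusted p = 8.04e-05, without replicate 3 -1.97). Of the pyruvate kinases, the liver form *Pklr* fell (-0.90 ± 0.23, adjusted p = 0.00712, without replicate 3 -0.80) and *Pkm*, the form of most other tissues, rose (0.87 ± 0.11, adjusted p = 2.42e-07, without replicate 3 0.89), both without overlap. In gluconeogenesis, the log2 fold changes of the 12 genes measured lay between -0.34 and 0.40, and *Pck1* was at 0.25 ± 0.22 (adjusted p = 0.563). In 23 genes from the insulin receptor to FOXO, 1 was called, the AKT inhibitor *Trib3* (0.60 ± 0.18, adjusted p = 0.022, without replicate 3 0.65). *Irs2* (-0.14 ± 0.28, adjusted p = 0.838) and *Foxo1* (-0.14 ± 0.14, adjusted p = 0.621) did not pass.

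Of 19 nuclear receptors, *Pparg*, the receptor of adipogenesis, rose from 8.12 to 8.88 with a median of 8.55 on CTRL to 9.06 to 10.50 with a median of 9.77 on HFD without overlap (1.33 ± 0.19, adjusted p = 4.1e-06, without replicate 3 1.41). The estrogen receptor *Esr1* was lower (-0.78 ± 0.17, adjusted p = 0.00127, without replicate 3 -0.83), though 3 of its 6 probes were not called. In bile acid genes, the phospholipid exporter *Abcb4* was 13.97 to 14.20 with a median of 14.10 on CTRL and 14.48 to 15.20 with a median of 14.86 on HFD (0.82 ± 0.08, adjusted p = 6.09e-09, without replicate 3 0.85). *Abcc3*, a basolateral exporter, rose by 0.90 ± 0.14 (adjusted p = 1.51e-05, without replicate 3 0.99), and 2 more of the 24 genes of the list were called higher without replicate 3. *Cyp2c70*, which makes the muricholic acids of mice, fell from 15.62 to 16.32 with a median of 15.98 on CTRL to 14.14 to 15.73 with a median of 14.82 on HFD (-1.25 ± 0.31, adjusted p = 0.00462, without replicate 3 -1.31). Among secreted factors, *Inhbb*, a subunit of activin B, rose by 1.18 ± 0.20 (adjusted p = 4.95e-05, without replicate 3 1.17) and *Fgl1* by 0.69 ± 0.20 (adjusted p = 0.0154, without replicate 3 0.69), with another probe of *Fgl1* at -0.49. *Saa4* (0.75 ± 0.19, adjusted p = 0.00663, without replicate 3 0.78) and *Il1rn* (0.87 ± 0.18, adjusted p = 0.00058, without replicate 3 0.85) rose and *Serpina3k* fell (-0.75 ± 0.12, adjusted p = 2.9e-05, without replicate 3 -0.75), which were the 3 called of 24 acute phase genes.

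Of 30 interferon-stimulated genes measured, 3 were called lower. All 30 had a log2 fold change below 0, with a median of -0.25. *Irf7*, the transcription factor of the response, was 12.32 to 13.04 with a median of 12.68 on CTRL and 11.63 to 12.23 in 5 HFD mice, while replicate 3 had 13.14, above every CTRL mouse (-0.80 ± 0.16, adjusted p = 0.000676, and -0.88 ± 0.15 without it, adjusted p = 5.39e-05). *Oasl1* (-0.78 ± 0.17, adjusted p = 0.00165, without replicate 3 -0.82) and *Ifit1* (-0.61 ± 0.20, adjusted p = 0.041, without replicate 3 -0.67) were the other members called. Since the genes are read in the same mice, their shared sign is not 30 separate observations. The 5 markers of T and NK cells measured also had log2 fold changes below 0, at -0.49 to -0.01, with sums of 9.86 to 10.65 on HFD and 9.98 to 10.62 on CTRL, and the 4 markers of B and plasma cells measured had log2 fold changes of -0.78 to -0.19, with sums of 8.93 to 9.58 on HFD and 8.76 to 11.42 on CTRL. None of these 9 markers was called, and their part in the interferon-stimulated genes was not tested.

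Other gene groups held few called members or none. Log2 fold changes lay between -0.24 and 0.33 in 10 genes of polyunsaturated fatty acid synthesis, between -0.84 and 0.46 in 19 apolipoproteins and assembly factors, between -1.15 and 0.14 in 12 genes of growth hormone signalling, between -0.08 and 0.43 in 14 NRF2 targets and between -0.63 and 0.26 in 19 clock genes. In 25 cell cycle genes the median was 0.20, none was called, and log2 fold changes lay between -0.50 and 0.53. In fed p110αhep+/+ mice 17 of the 25 were higher, against 2.65% of all genes, with a median of 0.82, and the difference between genotypes was called for 5, all more negative in p110αhep-/- mice. Of 21 ATF4 targets, at -0.54 to 1.00, only *Vldlr* was called, at 1 of its 2 probes. Of 18 immediate early genes, at -0.69 to 1.35, *Btg2* was called (0.88 ± 0.19, adjusted p = 0.00115, without replicate 3 0.83). Of 30 amino acid genes, at -0.43 to 0.77, it was *Oat*, and of 30 complement and coagulation genes, at -0.88 to 0.24, *C8b* (-0.88 ± 0.19, adjusted p = 0.00128, without replicate 3 -0.93). Of 30 phase II conjugation enzymes, at -0.71 to 0.61, *Gstk1* rose (0.61 ± 0.09, adjusted p = 3.25e-06, without replicate 3 0.63) and *Ugt2b1* fell (-0.63 ± 0.15, adjusted p = 0.00291, without replicate 3 -0.65).

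Some of the largest changes lay outside these pathways. *Krt23*, a keratin, rose from 7.67 to 9.20 with a median of 8.75 on CTRL to 9.98 to 11.87 with a median of 11.12 on HFD without overlap (2.41 ± 0.29, adjusted p = 1.79e-07, without replicate 3 2.47). *Rad51b*, a gene of DNA repair, rose by 2.10 ± 0.56 (adjusted p = 0.00985, without replicate 3 2.01), but CTRL replicate 2 was at 10.76 and the other CTRL mice at most at 8.07. *Slc22a27*, an organic anion transporter of a family of near copies (1.93 ± 0.27, adjusted p = 2.48e-06, without replicate 3 2.05), and *Slc35f2* (1.93 ± 0.34, adjusted p = 6.88e-05, without replicate 3 2.03) rose from levels near background. *Sema5b* rose at the probe used (1.93 ± 0.22, adjusted p = 3.96e-08, without replicate 3 2.05). Its 3 other probes rose by less than 1.5-fold and were not called (0.32, 0.47 and 0.53, adjusted p = 0.00809, 0.0036 and 0.00104). Of the falls, *Serpina4-ps1* went from 8.47 to 11.05 with a median of 10.31 on CTRL to 5.54 to 7.40 with a median of 6.30 on HFD (-3.78 ± 0.62, adjusted p = 3.19e-05, without replicate 3 -3.86) and *Serpina9*, whose probe also lies on chromosome 12, from 7.46 to 10.06 with a median of 8.75 on CTRL to 6.12 to 7.43 with a median of 6.54 on HFD (adjusted p = 0.000398, a log2 fold change of -2.02 without replicate 3), both without overlap. *Adgrf1*, an adhesion receptor (-2.08 ± 0.24, adjusted p = 8.53e-08, without replicate 3 -2.16), *Rgs3*, a regulator of G protein signals (-2.09 ± 0.46, adjusted p = 0.00128, without replicate 3 -2.17), and *Pnpla5*, a lipase gene (-1.78 ± 0.34, adjusted p = 0.000286, without replicate 3 -1.79, with another probe at -0.59), also fell. Of the other 3 probes of *Rgs3*, 1 was not called (-0.18).

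Without array weights, 232 genes were called higher and 189 lower with all mice, against 303 and 230 without replicate 3. In the main fits, where this array has a low weight, most calls that turned on replicate 3 were gained without it. With it 9 genes passed that did not pass without it, led by *Cyp4a12b* (-1.17 ± 0.38, adjusted p = 0.0356, and without it -1.08 ± 0.38, adjusted p = 0.0538) and *Cyp4a12a* (-1.15 ± 0.37, adjusted p = 0.0365, and without it -1.03 ± 0.37, adjusted p = 0.0613), near-identical male-biased hydroxylases. *Lrtm2* was among them with replicate 3 at 7.83 against 5.54 to 6.01 in the other HFD mice and 4.93 to 5.53 with a median of 5.32 on CTRL. *Sybu* (0.63 with and 0.58 without it) and *Eme2* (-0.63 and -0.57) dropped under the fold threshold, and the other 2 probes of *Eme2* were not called with all mice. Without it 73 genes were gained, 42 higher and 31 lower. The largest were *Cib3* (-1.63 ± 0.54, adjusted p = 0.0369, with all mice -1.45), *Grn* (-1.61 ± 0.56, adjusted p = 0.0483, with all mice -1.35), *Cyp26b1* (1.56 ± 0.51, adjusted p = 0.0355, with all mice 1.40), *Gm32280* (-1.22 ± 0.42, adjusted p = 0.0472, with all mice -1.12) and *Tnnt2* (-1.05 ± 0.34, adjusted p = 0.0353, with all mice -0.95). The value of *Grn* rests on 1 probe, since with all mice the other 2 gave 0.0018 and -0.18. For *Cyp26b1*, which breaks down retinoic acid, replicate 3 was at 8.78, within the CTRL range of 7.77 to 11.18 with a median of 10.19, and the other HFD mice at 11.13 to 12.07.

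To ask which changes depend on hepatocyte p110α, the diet effect was set against that in fed p110αhep+/+ mice, where 543 genes were higher (2.65%) and 227 lower (1.11%) on HFD. The difference between the 2 diet effects was called for 275 genes, of which 63 (0.308%) were more positive and 212 (1.03%) more negative in p110αhep-/- mice. Without replicate 3 it was called for 347, of which 270 were the same genes. In lipogenesis the difference was called for 8 of 16 genes, all more negative in p110αhep-/- mice, and the median diet effect was -0.12 in p110αhep+/+ mice against -0.86. On HFD in p110αhep+/+ mice 3 of the 16 were called lower, *Aacs* (-0.67, adjusted p = 0.0119), *Pnpla3* (-1.01, adjusted p = 0.014) and *Srebf1* (-0.65, adjusted p = 0.0143), and 1 higher. *Fasn* was 16.53 to 17.70 with a median of 17.37 on CTRL and 17.05 to 17.94 with a median of 17.62 on HFD in p110αhep+/+ mice (0.25 ± 0.19, adjusted p = 0.364), and the difference between genotypes was -1.90 ± 0.28 (adjusted p = 6.35e-05, without replicate 3 -1.84). For *Scd1* the difference was -2.11 ± 0.35 (adjusted p = 0.000336, without replicate 3 -2.21), for *Acacb* -2.01 ± 0.39 (adjusted p = 0.00227, without replicate 3 -2.02) and for *Acly* -1.25 ± 0.23 (adjusted p = 0.00102, without replicate 3 -1.26), which rose in p110αhep+/+ mice (0.76, adjusted p = 0.000257).

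The difference was also called for genes outside lipogenesis. Of the 15 PPARα targets, 10 of which rose in p110αhep+/+ mice, it was called more positive in p110αhep-/- mice for 1 and more negative for 2. In sterol genes it was called for 3 of 24 genes, among them *Cyp51* (-1.51 ± 0.28, adjusted p = 0.00129, without replicate 3 -1.57) and *Pmvk* (-0.76, adjusted p = 0.022, without replicate 3 -0.79). *Slc2a4* stayed at 8.64 to 9.78 with a median of 9.38 on HFD in p110αhep+/+ mice, with a difference of -1.77 ± 0.30 (adjusted p = 0.000426, without replicate 3 -1.76). *Hamp2* was 12.10 to 15.11 with a median of 13.49 on CTRL and 13.05 to 14.50 with a median of 13.87 on HFD in p110αhep+/+ mice (0.26 ± 0.80, adjusted p = 0.857), and the difference was -6.62 ± 1.19 (adjusted p = 0.001, without replicate 3 -6.96). For *Hamp*, which fell to 11.14 to 13.82 with a median of 12.69 in p110αhep+/+ mice as well (-3.37 ± 1.11, adjusted p = 0.0238), the difference of -5.52 ± 1.65 did not pass with all mice (adjusted p = 0.057) and without replicate 3 was -6.03 ± 1.56 (adjusted p = 0.0233). *Gpat3* (1.99 ± 0.31, adjusted p = 0.000102, without replicate 3 2.02) and *Cd36* (1.24 ± 0.35, adjusted p = 0.0424, without replicate 3 1.30) rose more in p110αhep-/- mice, where both started lower, at 7.65 to 8.23 with a median of 7.96 for *Cd36* on CTRL against 9.31 to 11.03 with a median of 10.80 in p110αhep+/+ mice.

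Several large differences were in genes whose diet effect was called in p110αhep+/+ mice and not in p110αhep-/- mice. *Igfbp1*, an insulin-repressed binding protein of IGF, went from 9.46 to 13.93 with a median of 11.21 on CTRL to 12.61 to 15.07 with a median of 14.21 on HFD there (3.04 ± 0.43, adjusted p = 1.41e-06) and was 13.32 to 15.19 with a median of 14.41 and 12.52 to 15.55 with a median of 14.16 in p110αhep-/- mice (-0.28 ± 0.48, adjusted p = 0.796), a difference of -3.32 ± 0.65 (adjusted p = 0.00227, without replicate 3 -3.38). *Fabp5* fell there (-2.21 ± 0.27, adjusted p = 1.07e-07) and did not pass in p110αhep-/- mice (0.57 ± 0.30, adjusted p = 0.254), a difference of 2.78 ± 0.41 (adjusted p = 6.35e-05, without replicate 3 2.83). *Sdcbp2* rose there (2.24 ± 0.24, adjusted p = 4.2e-09) and was near background in p110αhep-/- mice on both diets, and *Rgs16* differed by -2.44 ± 0.62 (adjusted p = 0.0237, without replicate 3 -2.29). In contrast, the difference was not called for any of the Cyp2b genes, for example -0.29 ± 0.77 for *Cyp2b10* (adjusted p = 0.894), which rose by 3.54 in p110αhep+/+ mice, nor for *Tfrc* (0.61 ± 0.41, adjusted p = 0.471), *Hsd3b5* (3.19 ± 1.04, adjusted p = 0.0833) or *Pparg* (0.59 ± 0.26, adjusted p = 0.224). A difference that was not called does not show that the genotypes responded alike. The count of differences between genotypes moved with single mice, to 177 without CTRL replicate 3, 170 without CTRL replicate 5 and 178 without replicate 6 of the p110αhep+/+ HFD mice, and within batch 2 to 4.

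**Figure D4:**
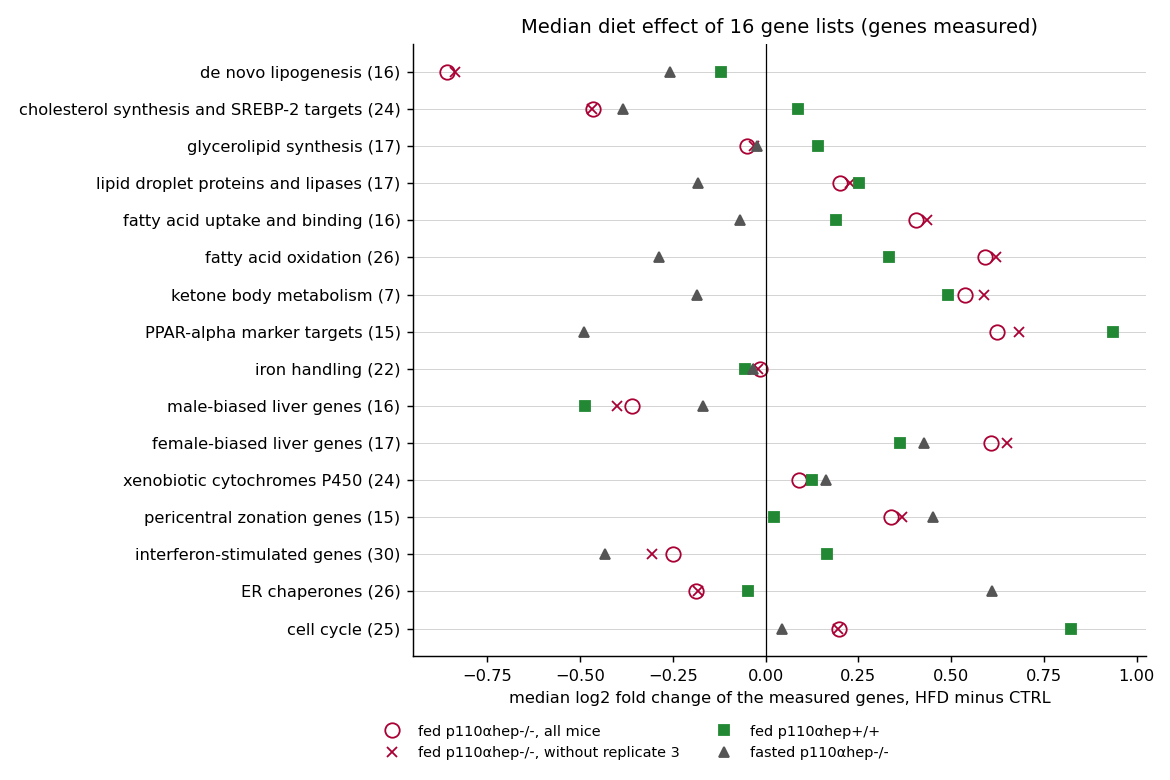
Median log2 fold change (HFD minus CTRL) over the measured genes of 16 lists in fed p110αhep-/- mice with all mice (open circles) and without replicate 3 (crosses), fed p110αhep+/+ mice (squares) and fasted p110αhep-/- mice (triangles). Lipogenesis is at -0.86 in fed p110αhep-/- mice and -0.12 in fed p110αhep+/+ mice, and oxidation lies above 0 in fed and below 0 in fasted p110αhep-/- mice.

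The diet effect in p110αhep-/- mice also depended on whether they had eaten. In fasted mice, 188 genes were higher (0.918%) and 199 lower (0.971%) on HFD. The difference between the fed and the fasted diet effect was called for 591 genes, 364 (1.78%) more positive and 227 (1.11%) more negative in fed mice, and for 655 without replicate 3, of which 579 were the same. For fatty acid oxidation the difference was called for 22 of its 26 genes, all more positive in fed mice, and the median diet effect was 0.59 in fed mice against -0.29 in fasted mice, where 4 genes fell. *Ehhadh* was 14.63 to 15.38 on CTRL and 13.12 to 14.54 with a median of 13.55 on HFD in fasted mice (-1.38 ± 0.18, adjusted p = 1.81e-06), a difference of 2.00 ± 0.26 from the fed effect (adjusted p = 6.64e-07, without replicate 3 2.01). Every fed p110αhep-/- mouse, on either diet, was below every fasted CTRL mouse for this gene. Of the 15 PPARα targets, 10 had a called difference, among them *Acot2* (2.76 ± 0.38, adjusted p = 1.63e-06, without replicate 3 2.85), *Vnn1* (2.38 ± 0.33, adjusted p = 2.46e-06, without replicate 3 2.47), *Pdk4* (2.88 ± 0.58, adjusted p = 0.00095, without replicate 3 2.94) and *Fgf21* (2.30 ± 0.35, adjusted p = 1.42e-05, without replicate 3 2.21). *Pdk4* and *Fgf21* were not called in fed mice and fell in fasted mice.

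**Figure D5:**
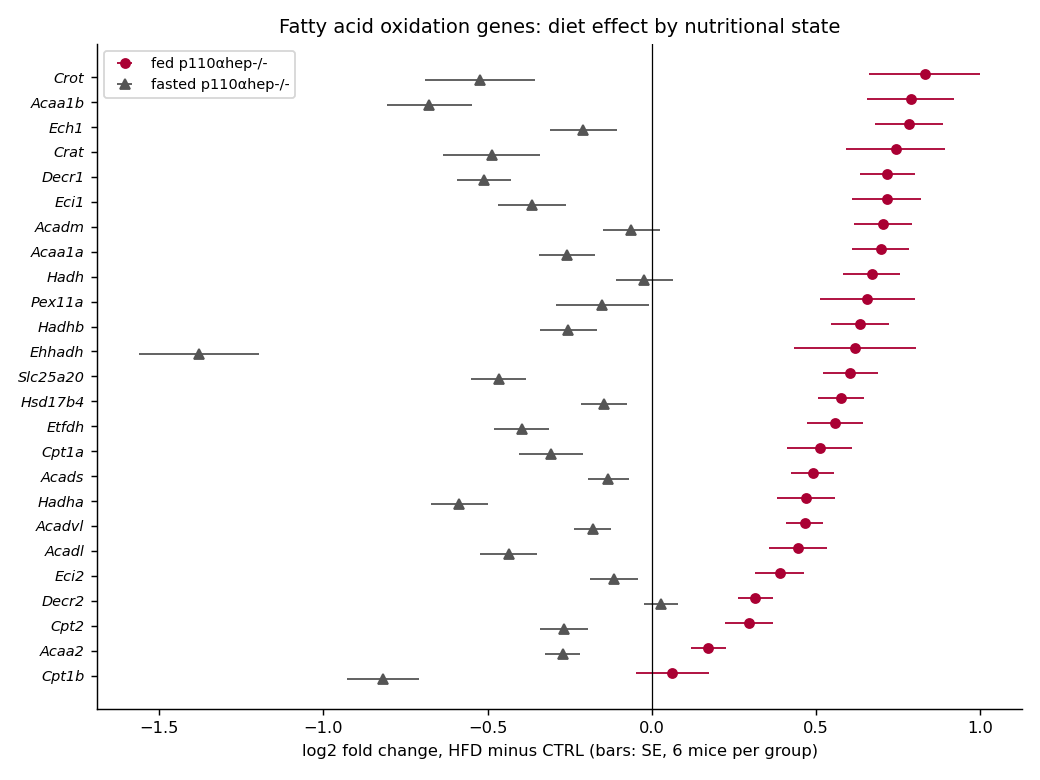
Log2 fold change (HFD minus CTRL, x axis) of 25 of the 26 fatty acid oxidation genes in fed (circles) and fasted (triangles) p110αhep-/- mice, with 6 mice per group and bars for the standard error. The fed values all lie above 0, and the fasted values lie below 0 for every gene but *Decr2*.

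Of 17 genes of lipid droplets and lipases, 6 had a called difference by state, all more positive in fed mice. *Cidec* rose in fed mice and fell in fasted mice, from 11.22 to 13.85 with a median of 12.20 on CTRL to 8.94 to 11.95 with a median of 10.18 on HFD (-2.12 ± 0.44, adjusted p = 0.000852), a difference of 3.52 ± 0.62 (adjusted p = 0.000154, without replicate 3 3.59), and *Plin2* behaved likewise (1.71 ± 0.27, adjusted p = 2.57e-05, without replicate 3 1.75). *Lamb3*, a laminin chain, rose by 1.39 in fed and changed by -2.27 in fasted mice, the largest difference called (3.66 ± 0.42, adjusted p = 5.9e-08, without replicate 3 3.77). Among the largest differences were *Cyp2c70* (-3.42 ± 0.43, adjusted p = 3.49e-07, without replicate 3 -3.48) and *Derl3*, a gene of endoplasmic reticulum quality control (-3.41 ± 0.72, adjusted p = 0.00151, without replicate 3 -3.54). Of 26 genes of the endoplasmic reticulum stress response, 15 had a called difference, all more negative in fed mice, where the median diet effect was -0.19 against 0.61 in fasted mice. For *Slc2a4* the difference was -2.52 ± 0.31 (adjusted p = 2.26e-07, without replicate 3 -2.50), and fasted mice were low on both diets (5.90 to 7.63 with a median of 6.63 and 6.23 to 7.78 with a median of 7.02). *Hamp* fell in fasted mice too (-8.24 ± 1.20, adjusted p = 6.37e-06), and the difference of -0.66 ± 1.71 did not pass (adjusted p = 0.877). The fasted HFD mice ranged widely, at 4.89 to 16.06 with a median of 5.54.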

How the data were processed

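RNA of 48 male mouse livers was hybridized to one-colour Agilent 8x60K mouse arrays, 6 mice in each of 8 groups. The authors extracted spot intensity with Agilent Feature Extraction 10.10.1.1 and analysed it with limma, and the deposited median spot intensities (no background subtracted) were used here, on the log2 scale. Control spots were left out, outlier spots set to missing and spots of a probe averaged. A probe was kept if well above background on at least 5 of 6 arrays of any group, which left 30793 of 56605 probes and 20486 genes. The washing batch (2 batches of 3 slides, each slide with 1 array of every group) was removed with the groups protected, and arrays were quantile normalized. A model over all 48 arrays with array weights was fitted in limma 3.58.1 (R 4.3.3), with Benjamini-Hochberg adjustment over the probes kept. A gene was read at its brightest probe and called where it differed by more than 1.5-fold with an adjusted p no higher than 0.05. Interaction contrasts tested differences between diet effects. Between 50.1% and 57.4% of probes were well above background on each array without saturated spots. Precision is limited by the number of arrays.

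Probes were named through RefSeq accessions (32994), symbols (10224) or synonyms (520), and 12867 were not matched. Named genes were the 15 largest rises and 15 largest falls called with and without replicate 3, the 5 largest called only with or only without it, the 5 largest differences in each interaction, and members of gene lists, by role or because they were called. Some genes these rules name are not reported here, though counts and medians of lists include them. Genes, lists and tests were chosen with earlier results of these data known. In simulated data with 200 changed genes for the fed p110αhep-/- comparison, the fit recovered 189 with 1 false call among 20486 genes. Whether these figures hold for the measured arrays, where HFD replicate 3 stood apart from its group, was not tested. Replicate numbers did not pair the mice: the deviations of same-numbered mice correlated at -0.112 to 0.110. Alternatives covered the signal column, filter, normalization, batch, weights, probe choice, fold threshold, replicate block and each mouse left out.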

Additional observations from a re-analysis of the deposited data

Results flagged for a closer look

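Of 96 groups of 6 mice tested for an outlying mouse (48 genes on both diets: the targeted gene, the largest changes, those whose call depends on HFD replicate 3 and the largest interactions, without other members of lists), 14 had one by Dixon's ratio, the gap to the nearest mouse over the whole range, where chance gives about 1 in 20. In 10 of the 14 it was HFD replicate 3. Since 10 of the 48 genes, among them *Lrtm2*, *Cyp26b1* and *Tnnt2*, were picked because their call changes without this mouse, that rate is no yardstick for its share. This mouse was the lowest for *Tfrc* (0.822), *Cyp26b1* (0.714), *Cyp2b10* (0.665) and *Cyp2b9* (0.656), and the highest for *Hamp2* (0.816), *Lrtm2* (0.796), *Scd1* (0.708), *Scd3* (0.704), *Hamp* (0.693) and *Tnnt2* (0.644). HFD replicate 4 was the lowest for *Slc2a4* (0.721). CTRL replicate 2 was the lowest for *Pik3ca* (0.679) and *Krt23* (0.632) and the highest for *Rad51b* (0.734).

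The diet effect differed between fed p110αhep-/- and fed p110αhep+/+ mice for 15 of these 48 genes by the interaction test in limma, against 275 of all 20486 genes. Of the 48, *Hamp2*, *Igfbp1*, *Fabp5*, *Rgs16* and *Sdcbp2* entered for the size of this difference, so the share among the 48 is a description. On the log2 scale the difference was negative for *Hamp2* (-6.62), *Igfbp1* (-3.32), *Rgs16* (-2.44), *Sdcbp2* (-2.25), *Scd1* (-2.11), *Acacb* (-2.01), *Scd3* (-1.98), *Ppp1r3g* (-1.82), *Slc2a4* (-1.77) and *Aacs* (-1.15). It was positive for *Fabp5* (2.78), *Gpat3* (1.99), *Slc35f2* (1.60), *Vnn1* (1.27) and *Cd36* (1.24).

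Between fed and fasted p110αhep-/- mice, it differed for 16 of these 48 genes, against 591 of all 20486, and *Lamb3*, *Cidec*, *Cyp2c70* and *Derl3* entered for the size of this difference. The difference was more positive in fed mice for *Lamb3* (3.66), *Cidec* (3.52), *Cyp4a14* (2.70), *Vnn1* (2.38), *Gpat3* (2.18), *Fabp5* (1.85) and *Sema5b* (1.62). It was more negative for *Cyp2c70* (-3.42), *Derl3* (-3.41), *Serpina4-ps1* (-2.81), *Slc2a4* (-2.52), *Serpina9* (-2.24), *Aacs* (-2.15), *Rgs16* (-1.99), *Pnpla5* (-1.72) and *Tnnt2* (-1.54).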

How the results depend on the processing

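Without the fold threshold 1193 genes were higher and 1305 lower in fed p110αhep-/- mice, the genotype difference was called for 580 genes and the difference between fed and fasted mice for 1619. Within washing batch 2, with 3 mice a group, the counts were 62 higher, 59 lower, 4 and 198, whereas batch 1, also with 3, gave 355 higher and 303 lower. The lower count was 325 with processed signals scaled to the 75th percentile. The genotype difference, 275 genes in the main analysis, was least stable: 145 without a filter on dim probes, 163 without batch correction, 154 within batch 1 and 160 without array weights. Leaving out 1 mouse gave 170 (CTRL replicate 5) to 400 (replicate 3 of the p110αhep+/+ HFD mice). *Grn* reversed within batch 1 (0.50, adjusted p = 0.643). The cause of these shifts was not tested. With a replicate block 268 genes were higher and 208 lower, the genotype difference was called for 201 and the difference by state for 619, but the numbers did not pair the mice. Of 1584 values of named genes under an alternative, 1482 kept direction and call, 79 lost and 22 gained it. Of the 51 genes behind these values, 15 kept both under all alternatives run and 31 lost the call under at least 1. Signal near background limits the folds of dim genes, such as *Hamp* on HFD and *Cyp2b13* on CTRL.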
